A study of Mus musculus with 12 samples.

Results

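The 9 genes described here encode enzymes and receptors of the vitamin A pathway: Dhrs3, Rdh10, Aldh1a1 and Cyp26b1, which interconvert, oxidize or degrade retinoids, and Rara, Rarb, Rarg, Rxra and Rxrb, which encode nuclear receptors. They were taken by name from the 46103 genes that the deposited expression values list. Dhrs3 was put on the list because of its higher values in IMDP than in DP cells, so its levels are a description, and only its difference between IMSP and SP cells was tested.

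In this pathway, retinol is oxidized to retinal, and retinal is oxidized further to retinoic acid, the active form. DHRS3 runs the first step backwards and returns retinal to retinol, whereas CYP26 enzymes degrade retinoic acid. Retinoic acid binds retinoic acid receptors (RARs), which sit on DNA in pairs with retinoid X receptors (RXRs) and switch from repression to activation of their target genes. In blood, retinoic acid is known for driving myeloid differentiation and for its part in the dormancy of hematopoietic stem cells.

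RNA was sequenced from 12 libraries of 100 sorted cells each, 3 per group, from mice with a disease like chronic myeloid leukemia (CML). Bone marrow cells from 5FU-treated G0M mice were transduced with a retrovirus carrying human BCR-ABL1 and GFP and were injected, with normal bone marrow cells, into lethally irradiated C57BL/6 mice. G0M is the fluorescent protein mVenus fused to a p27 mutant without Cdk inhibition. It is expressed from the Rosa26 locus after Vav1-Cre recombination, which acts in blood cells, and it marks cells in G0. All cells were BCR-ABL1+ CD27+ LSK cells (lineage-negative, Sca1-positive, c-Kit-positive) of bone marrow and spleen from female mice aged 6 to 12 weeks. DP cells were G0M+ and SP cells G0M- from vehicle-treated mice. IMDP (G0M+) and IMSP (G0M-) cells came from mice that received imatinib, which blocks the kinase activity of BCR-ABL1, once daily at 40 mg/kg from day 10. The samples are not stated to come from separate mice, so p values measure only the spread between libraries, which may be technical. Imatinib libraries carry library numbers 1 to 6 and vehicle libraries 7 to 12, so treatment and library number cannot be told apart.

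Values are RPKM (reads scaled by transcript length in kilobases and by the library total), which were deposited by the authors and can be compared between genes because they are divided by length. Totals of 11.4 to 20.6 M reads stood behind the libraries, and 1 read on a 1-kb transcript equaled 0.0486 to 0.0880 RPKM. Reads on listed features were 30.8% to 34.1% of these totals in DP and SP, 25.9% to 31.1% in IMDP and 32.6% to 37.1% in IMSP libraries, and the part of that in the differences of IMDP from IMSP cells was not tested. The sorted-cell genes Kit, Ly6a, Cd27, Cd34, Flt3, Slamf1, Procr and Meis1 were above 0 in all 12 libraries. The summed level of 8 proliferation genes was 23.1 to 94.8 RPKM in G0M+ and 244 to 333 RPKM in G0M- libraries. Summed levels of genes of other cell types also differed between libraries. The sum of 10 mast cell and basophil genes was 80.1 to 298 RPKM in DP and 25.4 to 197 RPKM in IMDP libraries, against 16.1 to 26.4 RPKM in SP and IMSP libraries. The sum of 10 macrophage genes was 10.0 to 24.3 RPKM in G0M+ libraries. It was 38.5 RPKM in the third IMSP library and 3.85 to 11.2 RPKM in the other G0M- libraries. C1qa, a defining gene, was at 0 in SP and IMSP libraries. The sum of 10 neutrophil and monocyte genes was 74.1 to 1492 RPKM in DP and 77.7 to 303 RPKM in IMDP, against 400 to 2739 RPKM in SP and 531 to 2331 RPKM in IMSP libraries. That of 10 erythroid and megakaryocyte genes was 56.8 to 175 RPKM in DP and 20.9 to 279 RPKM in IMDP, against 22.4 to 47.9 RPKM in SP and 7.59 to 44.1 RPKM in IMSP libraries. The sum of 10 lymphoid genes was 84.6 to 173 RPKM in DP, 91.2 to 265 RPKM in SP, 27.3 to 86.2 RPKM in IMDP and 65.4 to 167 RPKM in IMSP libraries. The part of these cells in the differences between populations given here was not tested. In such bulk samples, fewer cells of a type and less RNA per cell cannot be told apart.

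Of the 9 genes, 6 reached 1 RPKM in at least 3 libraries and entered the test over 10072 genes (Dhrs3, Rdh10, Aldh1a1, Rara, Rxra and Rxrb). Rxra did so through 3 G0M+ libraries (1 DP and 2 IMDP libraries). Rarb, Rarg and Cyp26b1 lay below this level. Across the genes tested, the median log2 difference was -0.25 in IMDP against IMSP, -0.17 in IMDP against DP, 0.08 in IMSP against SP and -0.02 in DP against SP cells, and each gene's difference is to be read against that shift.

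The sequences upstream of Dhrs3 and Rarb are shown because the list was built around Dhrs3 and because Rarb carries a known response element. Both are the 250 bases before a transcription start site in RefSeq (GRCm38.p6), 5′ to 3′ on the strand of the gene. Capitals mark a direct repeat of the receptor half-site.

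Dhrs3 (chr4:144892577-144892826, plus strand): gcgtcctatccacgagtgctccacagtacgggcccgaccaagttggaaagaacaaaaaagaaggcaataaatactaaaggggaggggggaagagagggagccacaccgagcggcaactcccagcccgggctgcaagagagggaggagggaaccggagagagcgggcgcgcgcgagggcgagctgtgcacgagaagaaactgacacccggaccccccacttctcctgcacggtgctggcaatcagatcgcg

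Rarb (chr14:16575477-16575726, minus strand): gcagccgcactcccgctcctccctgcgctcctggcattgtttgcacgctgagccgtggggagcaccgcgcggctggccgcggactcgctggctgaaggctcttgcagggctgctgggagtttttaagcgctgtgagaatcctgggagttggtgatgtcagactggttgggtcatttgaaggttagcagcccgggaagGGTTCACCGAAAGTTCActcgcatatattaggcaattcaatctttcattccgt

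The half-site searched was AGGTCA or AGTTCA, or either of them with G as the first letter, in direct repeats with a spacer of 1, 2 or 5 bases (DR1, DR2 and DR5), on both strands of windows of 300 bases around each start (250 before and 50 after it). RefSeq windows were matched for 8 of the 9 members, 17 windows in all, and Rdh10 had none in the table. The Rarb window, which lies inside the longer gene annotated in GENCODE M21, held the DR5 sequence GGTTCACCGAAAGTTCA at bases -53 to -37 from the start. This is the textbook retinoic acid response element of Rarb. Of 32851 windows of this length, 32 (0.0974%) held a DR5 and 193 (0.588%) held a DR1, DR2 or DR5. The other member windows, including the 3 of Dhrs3, held no such repeat, which says only that these letters are not in these windows.

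Dhrs3 (chromosome 4, 144892827 to 144928209, plus strand) encodes the retinal reductase. It was measured at 1.05, 0.804 and 1.44 RPKM in DP libraries and at 0.669, 0.282 and 0.912 RPKM in SP libraries. Imatinib libraries gave 6.63, 3.66 and 5.50 RPKM in IMDP and 1.87, 1.55 and 2.58 RPKM in IMSP cells. All 3 IMDP libraries lay above all others, all 3 IMSP libraries lay between them and the vehicle libraries, and DP and SP libraries overlapped.

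The mean level of Dhrs3 was 5.26 ± 1.50 RPKM (SD, n = 3) in IMDP and 1.10 ± 0.319 RPKM in DP cells, a ratio of 4.80. The fitted log2 difference was 2.16 (SE 0.37), a description without a test, and it was smaller with a pseudocount of 1 RPKM (value given below). The mean was 2.00 ± 0.523 RPKM in IMSP and 0.621 ± 0.317 RPKM in SP cells, with a log2 difference of 1.63 (SE 0.37) and an adjusted p of 0.354 by limma over all genes. These libraries pair with the IMDP and DP libraries by neighboring library numbers, so this test may not be free of the choice of Dhrs3. None of the 10072 genes passed 0.05 in that comparison (0%), while 845 had an unadjusted p under 0.05. Dhrs3 levels rested on 16 to 46 reads in SP libraries and on 182 to 311 reads in IMDP libraries.

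Between populations, the fitted log2 difference of Dhrs3 was 1.34 (SE 0.37) in IMDP against IMSP and 0.81 (SE 0.37) in DP against SP cells, both without a test. The latter was 0.41 without the second SP library and 0.38 with a pseudocount of 1 RPKM. In 5 of 6 pairs of libraries with neighboring numbers, its level was higher in the G0M+ library, with ratios from 0.881 to 3.72, and 21.9% of the genes tested were higher in at least 5 pairs. The 5 genes tested whose log2 levels followed Dhrs3 most closely over the 12 libraries were Elk3 (Pearson r = 0.953), B3gntl1 (0.945), Fbxl4 (0.934), Hpgds (0.928) and Jak3 (0.925). These libraries share a treatment, a library number range and a gate, so the correlations are given as a description.

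**Figure D1:**
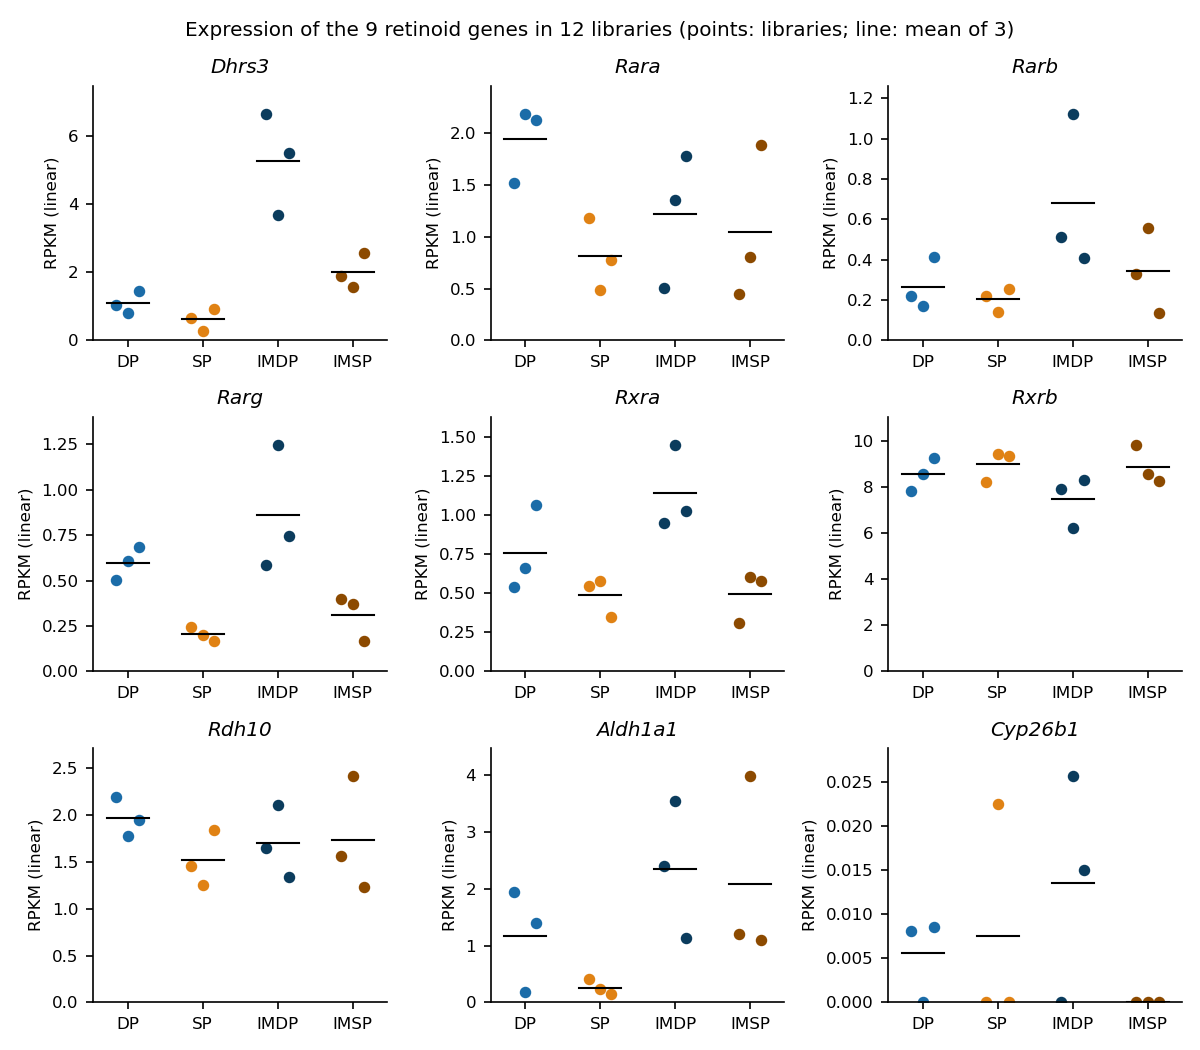
RPKM of the 9 genes (y axes, linear, each from 0) in the 4 groups (x axes), with 1 point per library and a line at the mean of 3 libraries. IMDP libraries of Dhrs3 lie between 3.66 and 6.63 RPKM, above all other libraries, whereas Rxrb lies between 6.24 and 9.83 RPKM in all 12.

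Rdh10 (chromosome 1, 16105774 to 16133734, plus strand) encodes a retinol dehydrogenase that makes retinal, the reverse of the DHRS3 reaction. Its level was 2.20, 1.78 and 1.94 RPKM in DP and 1.46, 1.26 and 1.85 RPKM in SP libraries, and it lay between 1.23 and 2.41 RPKM in the imatinib libraries. The groups overlapped in all comparisons. The log2 difference was 0.37 (SE 0.26) in DP against SP cells, with an adjusted p of 0.570, and 0.00 (SE 0.26) in IMDP against IMSP cells, with an adjusted p of 0.998.

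Aldh1a1 (chromosome 19, 20492715 to 20643465, plus strand) encodes a retinal dehydrogenase that makes retinoic acid. Its levels were 1.95, 0.189 and 1.40 RPKM in DP and 0.407, 0.232 and 0.146 RPKM in SP libraries. They were 2.40, 3.54 and 1.13 RPKM in IMDP and 1.20, 3.98 and 1.09 RPKM in IMSP libraries. All 3 IMSP libraries lay above all 3 SP libraries, and the second DP library was as low as the SP libraries.

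For Aldh1a1, the log2 difference was 2.42 (SE 0.72) in IMSP against SP cells, with an adjusted p of 0.436, and 1.22 (SE 0.72) in IMDP against DP cells, with an adjusted p of 0.362. Averaged over both populations, the log2 difference of imatinib against vehicle libraries was 1.82 (SE 0.51), with an adjusted p of 0.103, where 0.854% of all genes were called. The difference between these treatment effects was -1.20 (SE 1.02), with an adjusted p of 0.686, in a test that called 0% of all genes (937 had an unadjusted p under 0.05). Between populations, the log2 difference was 1.47 (SE 0.72, adjusted p = 0.408) in DP against SP and 0.27 (SE 0.72, adjusted p = 0.804) in IMDP against IMSP cells. G0M+ libraries averaged over treatments differed from G0M- libraries by 0.87 (SE 0.51), with an adjusted p of 0.213. That value became 1.31 with an adjusted p of 0.0446 without the second DP library, and the adjusted p was 0.0371 with a replicate block of neighboring library numbers. Over 21 alternatives it ranged from 0.0371 to 0.387. The values rested on 4 to 107 reads.

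Cyp26b1 (chromosome 6, 84571414 to 84593908, minus strand) encodes an enzyme that degrades retinoic acid. It had 0 to 3 reads in each library, with sums of 2 reads in DP, 3 in SP and 5 in IMDP cells. All 3 IMSP libraries had 0 reads, where 3 reads would be 0.0217 to 0.0335 RPKM, and the highest level in any library was 0.0256 RPKM. Differences between groups were not detectable at this depth. Counting error alone is covered by this limit.

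**Figure D2:**
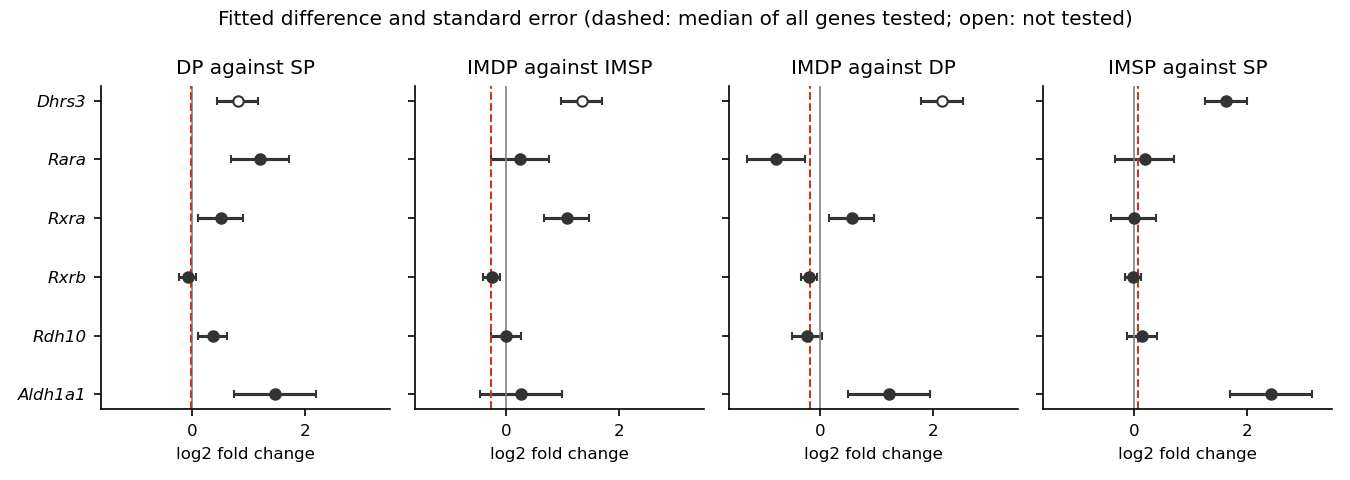
Fitted log2 fold change (x axes) with its standard error (bars) for the 6 genes that entered the test, in 4 comparisons. The dashed line is the median of all genes tested, and open points mark Dhrs3 values given without a test. Dhrs3 lies at 2.16 in IMDP against DP cells and Aldh1a1 at 2.42 in IMSP against SP cells, whereas Rxrb lies between -0.25 and -0.02 in all 4.

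Rara (chromosome 11, 98927818 to 98974942, plus strand) encodes RARα, the receptor fused to PML in acute promyelocytic leukemia. Its levels were 1.52, 2.18 and 2.13 RPKM in DP and 1.18, 0.490 and 0.780 RPKM in SP libraries. They were 0.508, 1.35 and 1.78 RPKM in IMDP and 0.448, 0.808 and 1.88 RPKM in IMSP libraries. All 3 DP libraries lay above all 3 SP libraries, and IMDP and IMSP libraries overlapped.

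The mean of Rara was 1.94 ± 0.366 RPKM in DP and 0.816 ± 0.346 RPKM in SP cells, a ratio of 2.38. The log2 difference was 1.21 (SE 0.51) with an adjusted p of 0.343, in a comparison that called 2.26% of all genes. With neighboring library numbers as a replicate block, which called 980 in place of 228 genes, the same difference had an SE of 0.25 and an adjusted p of 0.0191. This was the 1 alternative of 22 that passed the threshold, over a range up to 0.780. In IMDP against IMSP cells the log2 difference was 0.25 (SE 0.51, adjusted p = 0.746), and averaged over treatments it was 0.73 (SE 0.36, adjusted p = 0.149). The averaged value reached an adjusted p of 0.00842 with the block and, without the first IMDP library, a log2 difference of 0.97 with an adjusted p of 0.0498, with a highest adjusted p of 0.318 over 21 alternatives. The difference between the population effects was -0.96 (SE 0.73), with an adjusted p of 0.656. In IMDP against DP cells, Rara had a log2 difference of -0.77 (SE 0.51, adjusted p = 0.424).

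Rarg (chromosome 15, 102234938 to 102257517, minus strand) encodes RARγ, known for its role in the maintenance of hematopoietic stem cells. It was at 0.501, 0.609 and 0.683 RPKM in DP and 0.245, 0.198 and 0.167 RPKM in SP libraries. Imatinib libraries gave 0.586, 1.24 and 0.745 RPKM in IMDP and 0.399, 0.370 and 0.166 RPKM in IMSP cells. Every G0M+ library lay above every G0M- library, under vehicle and under imatinib.

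The mean of Rarg was 0.598 ± 0.0911 RPKM in DP and 0.204 ± 0.0396 RPKM in SP cells, a ratio of 2.94, and 0.859 ± 0.343 RPKM in IMDP and 0.312 ± 0.127 RPKM in IMSP cells, a ratio of 2.75. The G0M+ library was the higher in 6 of 6 neighboring pairs, with ratios from 1.47 to 4.48. Of the genes tested, 11.3% were higher in all 6 pairs. Rarg lay below the filter, and its values rested on 8 to 66 reads. In the fit without the filter, the log2 difference averaged over treatments was 1.21 (SE 0.26) with an adjusted p of 0.0120. That fit held 16776 genes, of which 2321 (13.8%) were called. By comparison it was 1.20 with an adjusted p of 0.217 in DP against SP cells, and 1.21 with an adjusted p of 0.0501 in IMDP against IMSP cells. The latter reached an adjusted p of 0.0316 with the block of neighboring library numbers, a combination chosen after seeing the data. The difference between its population effects was 0.01 (SE 0.51), with an adjusted p of 0.998.

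Rarb (chromosome 14, 16430839 to 16819156, minus strand) encodes RARβ and is itself switched on by retinoic acid through the response element printed above. Its levels were 0.220, 0.169 and 0.412 RPKM in DP, 0.219, 0.141 and 0.256 RPKM in SP, 0.512, 1.12 and 0.406 RPKM in IMDP and 0.332, 0.559 and 0.137 RPKM in IMSP libraries. The second library was the highest in IMDP and in IMSP cells, and the groups overlapped in all comparisons. These values rested on 7 to 63 reads. Rarb shares 1793 exon bases with Top2b on the opposite strand, which reached 13.3 RPKM, and the library kit does not mark strand, so reads in the shared stretch cannot be told apart. Without the filter, the log2 difference was 1.03 (SE 0.47) in IMDP against DP cells, with an adjusted p of 0.321.

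**Figure D3:**
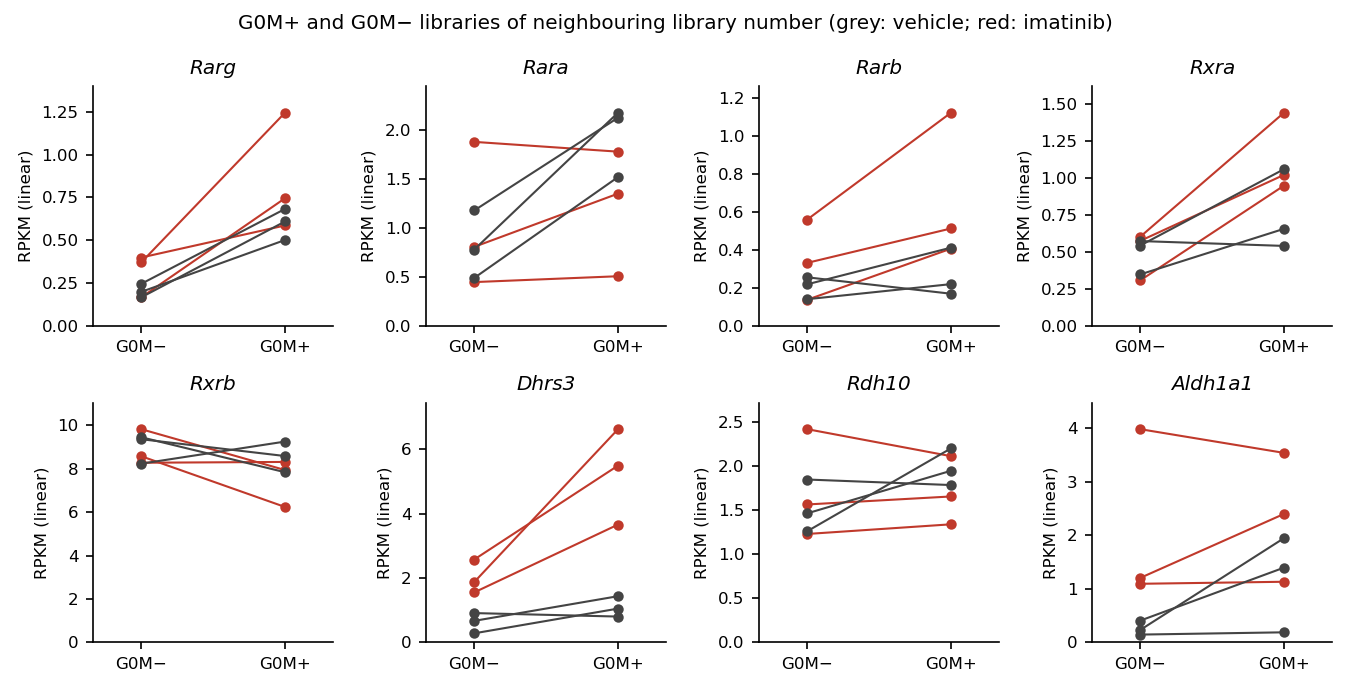
RPKM (y axes, linear, each from 0) of 8 genes in the G0M- and G0M+ library of each of 6 pairs with neighboring library numbers, joined by lines, grey for vehicle and red for imatinib. Rarg is higher in the G0M+ library in 6 of 6 pairs, Rara, Rarb, Rxra, Dhrs3 and Aldh1a1 in 5, Rdh10 in 4 and Rxrb in 2.

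Rxra (chromosome 2, 27676440 to 27762957, plus strand) encodes RXRα, the common partner of the RARs and of several other nuclear receptors. Its levels were 0.542, 0.658 and 1.06 RPKM in DP and 0.544, 0.575 and 0.349 RPKM in SP libraries. They were 0.951, 1.44 and 1.02 RPKM in IMDP and 0.308, 0.604 and 0.576 RPKM in IMSP libraries. All 3 IMDP libraries lay above all 3 IMSP libraries, whereas DP and SP libraries overlapped.

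The mean of Rxra was 1.14 ± 0.267 RPKM in IMDP and 0.496 ± 0.163 RPKM in IMSP cells, a ratio of 2.30. The log2 difference was 1.08 (SE 0.40) with an adjusted p of 0.0642, in a comparison that called 25.6% of all genes (2.37% higher and 23.3% lower). Rxra entered this test only because 3 G0M+ libraries reached 1 RPKM, so its p values among the genes that passed the filter are a description and support no difference. In the fit without the filter the adjusted p was 0.0710. Over 22 alternative settings it ranged from 0.0199 to 0.216. It was under 0.05 in 5 of these, among them the block of neighboring library numbers (0.0249), with the same limit of the filter. Another was that block without the filter, a setting chosen after seeing the data.

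In DP against SP cells, Rxra had a log2 difference of 0.51 (SE 0.40, adjusted p = 0.592), and in IMDP against DP cells of 0.56 (SE 0.40, adjusted p = 0.448). Averaged over treatments, its difference between populations was 0.79 (SE 0.28), with an adjusted p of 0.0541 against 26.3% of all genes called, and the same limit of the filter holds. Without the filter the adjusted p was 0.0590, and over 21 alternatives it ranged from 0.0164 to 0.136. It was under 0.05 in 7 of these, among them the fits without the first DP library (0.0461) and without the second IMSP library (0.0478). The difference between the population effects was 0.57 (SE 0.56), with an adjusted p of 0.735.

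Rxrb (chromosome 17, 34031812 to 34038399, plus strand) encodes RXRβ. Summed over its copies in the files, it was at 7.84, 8.59 and 9.25 RPKM in DP, 8.24, 9.46 and 9.36 RPKM in SP, 7.94, 6.24 and 8.32 RPKM in IMDP and 9.83, 8.58 and 8.28 RPKM in IMSP libraries. The groups overlapped in all comparisons. The log2 difference in IMDP against IMSP cells was -0.25 (SE 0.14, adjusted p = 0.215), the same as the median of all genes. It was 0.02 with libraries scaled to a common median, so no direction is given. The files list Rxrb as 4 numbered copies, which were summed. Copies 1 and 2 held nearly equal values and copies 3 and 4 were at 0, so how reads were split between copies is uncertain.

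Counted over all 9 genes, 2 did not overlap and were higher in DP than in SP libraries (Rara and Rarg), beside 9.68% of the genes tested. In IMDP against IMSP libraries 3 were higher without overlap (Dhrs3, Rarg and Rxra), beside 6.21%. These 3 are no fair count beside that share. Dhrs3 was chosen by its IMDP levels, and Rxra passed the filter only through G0M+ libraries. Rarg lay below the filter and is not among the genes that give the shares. In IMSP against SP libraries 2 were higher without overlap (Dhrs3 and Aldh1a1), beside 11.1%, and in IMDP against DP libraries 1 was (Dhrs3, which was chosen by that contrast), beside 4.58%. None of the 9 was lower without overlap in any of the 4 comparisons, beside 12.7% of the genes tested in DP against SP, 32.8% in IMDP against IMSP, 19% in IMDP against DP and 2.72% in IMSP against SP cells. By limma, none of the 5 tested members other than Dhrs3 passed an adjusted p of 0.05 in any comparison of the main setting, whose shares of all genes called were 2.26% in DP against SP, 25.6% in IMDP against IMSP, 0.367% in IMDP against DP and 0% in IMSP against SP cells.

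Of the 29 other genes for retinol and retinal enzymes, 9 were at 0 in all libraries and 9 entered the test. In IMDP against IMSP cells 1 of the 9 was called, lower, beside 23.3% of all genes, and the median log2 difference was -0.38 beside -0.25 for all genes. This was Aldh1b1, which encodes a mitochondrial aldehyde dehydrogenase able to use retinal. It was at 0.942, 0.759 and 1.28 RPKM in IMDP and 2.74, 2.22 and 3.58 RPKM in IMSP libraries, without overlap. The log2 difference was -1.43 (SE 0.33) with an adjusted p of 0.0108, and it was called under each of the 22 alternative settings, with adjusted p from 0.00125 to 0.0483. None of the 9 was called in the other pairwise comparisons.

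Aldh1a2, the major retinoic acid synthesis gene of the embryo, stood out by library instead of by group. It was at 0.733, 24.2 and 0.388 RPKM in DP, 0.193, 0.130 and 20.3 RPKM in SP, 0, 32.0 and 0 RPKM in IMDP and 0.0251, 23.4 and 0 RPKM in IMSP libraries. In each group, 1 library was above 20 RPKM and the other 2 were below 1 RPKM. The 4 high libraries form 2 of the 6 pairs with neighboring numbers, 3 with 4 and 11 with 12.

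The second IMDP and IMSP libraries (numbers 4 and 3) also held the highest levels of several members. In both groups the second library was the highest of 3 for 4 of the 9 members (Rarb, Rxra, Rdh10 and Aldh1a1), beside 17% of all genes tested. Among the 6 members that entered the test it was so for 3, as Rarb lay below the filter. Tgm2, a gene known to be induced by retinoic acid that encodes a transglutaminase, was at 6.11, 44.6 and 7.52 RPKM in IMDP and 1.30, 24.9 and 0.690 RPKM in IMSP libraries. These libraries differed in other genes as well. Slamf1, a surface marker of hematopoietic stem cells, was at 0.904, 3.76 and 0.794 RPKM in IMDP and 0.362, 3.58 and 0.131 RPKM in IMSP libraries, while Flt3, a receptor of multipotent progenitors, was at 8.47, 1.17 and 9.33 RPKM and 4.01, 1.77 and 8.10 RPKM. The other pair with high Aldh1a2 is the second DP and the third SP library. There, Aldh1a1 was the lowest of its group in both, at 0.189 and 0.146 RPKM. Rarb and Rdh10 were the lowest in that DP and the highest in that SP library, and Rxra was the lowest in that SP library. Tgm2 was the highest in both, at 15.7 and 11.0 RPKM. Tgm2, Slamf1 and Flt3 were singled out after their values were seen, and these patterns were not tested.

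Without the second IMDP and IMSP libraries, a setting chosen after seeing the data, the log2 difference of Dhrs3 was 2.39 in IMDP against DP and 1.78 in IMSP against SP cells, the latter with an adjusted p of 0.111 (0.111 to 0.682 over 20 alternatives). That of Aldh1a1 was 1.85 in IMSP against SP cells, with an adjusted p of 0.345 (0.345 to 0.964 over 20 alternatives), and that of Rxra was 1.05 in IMDP against IMSP cells, with an adjusted p of 0.169.

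**Figure D4:**
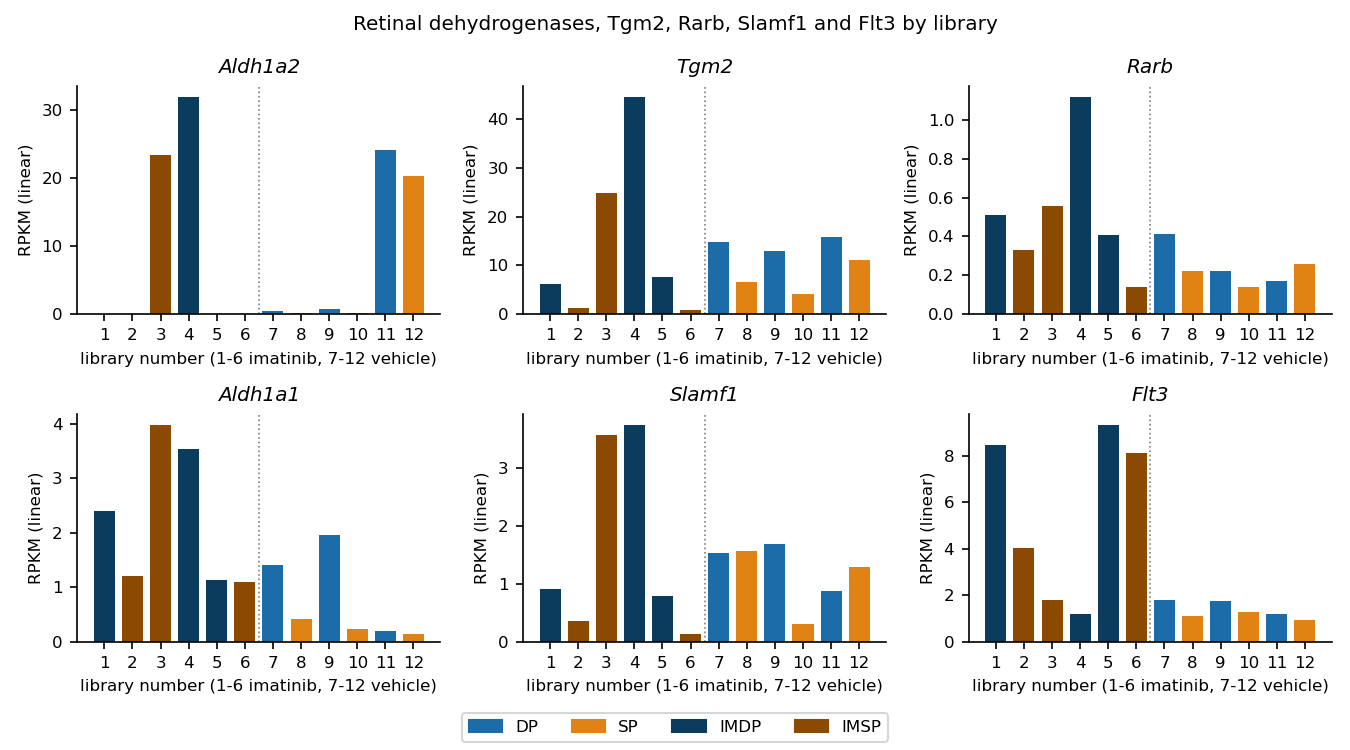
RPKM (y axes, linear) of 6 genes in the 12 libraries ordered by library number (x axes), with bars colored by group and a dotted line between imatinib and vehicle libraries. Aldh1a2 is above 20 RPKM in libraries 3, 4, 11 and 12 and below 1 RPKM in the other 8, and Tgm2, Rarb, Aldh1a1 and Slamf1 are highest in libraries 3 or 4.

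Of 16 genes for retinol uptake, binding and storage, 4 entered the test. Crabp1, Lrat, Rbp2 and Ttr were at 0 in all 12 libraries, as was the third RXR gene, Rxrg. Stra6, the retinol importer, and Crabp2, a carrier of retinoic acid to the nucleus, were each above 0 in only 1 library. They were at 0.0737 RPKM in an IMDP and 0.0632 RPKM in an IMSP library, in that order. Cyp26a1 had 10 and 3 reads in 2 DP libraries and 1 read in an IMDP library. Fabp5, a fatty acid carrier that also binds retinoic acid, was the 1 of the 4 genes called, beside 23.3% of all genes called lower, at 18.2, 11.2 and 17.5 RPKM in IMDP and 32.7, 21.6 and 28.2 RPKM in IMSP libraries. Its log2 difference was -0.82 (SE 0.25, adjusted p = 0.0334), and the call was lost with libraries scaled to a common median (-0.55, adjusted p = 0.148) and without the second IMDP library (-0.60, adjusted p = 0.134). It was called in 13 of 22 alternatives, with adjusted p from 0.000637 to 0.181. The list's median was -0.03 beside -0.25 for all genes.

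All 19 receptor coregulators entered the test, and 2 were called, both lower in IMDP than in IMSP cells, beside 23.3% of all genes called lower. Med1, a Mediator subunit that binds nuclear receptors, had a log2 difference of -0.47 (SE 0.13, adjusted p = 0.0237), and Tbl1xr1, a part of the NCoR corepressor complex, of -0.44 (SE 0.15, adjusted p = 0.0454). Both lost the call with libraries scaled to a common median, at -0.20 (adjusted p = 0.202) and -0.17 (adjusted p = 0.299), and without the second IMDP library, at -0.42 (adjusted p = 0.0830) and -0.32 (adjusted p = 0.165). Over 22 alternatives Med1 was called in 14, with adjusted p from 0.0128 to 0.348, and Tbl1xr1 in 7, with adjusted p from 0.00885 to 0.363. The list's median was -0.08 beside -0.25 for all genes. None of the 19 was called in the other pairwise comparisons.

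Of 14 other nuclear receptors that pair with RXR, such as the vitamin D and liver X receptors, 6 entered the test and none was called in any pairwise comparison. Their median log2 difference was 0.54 in DP against SP and 0.30 in IMDP against IMSP cells, beside -0.02 and -0.25 for all genes. Of the 20 genes known to be induced by retinoic acid, 8 entered the test and none was called. Their median was 0.39 in DP against SP, 0.33 in IMDP against IMSP, 0.06 in IMDP against DP and -0.05 in IMSP against SP cells, beside -0.02, -0.25, -0.17 and 0.08 for all genes.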

How the data were processed

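Expression was deposited by the authors as RPKM per feature and library, 48737 features in each of 12 files. Per the methods, reads were mapped to GRCm38/mm10 with CLC Genomics Workbench v11.0.0, whereas HISAT2 and featureCounts stand in the reporting summary. Whether the stated normalization is in the RPKM is not given in the sources used here. Numbered copies of a gene were summed (46103 genes). Whole reads were recovered from the RPKM steps (100% of 17735 features above 0, within 0.01 reads).

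The filter of 1 RPKM or more in 3 or more libraries kept 10072 genes. They were fitted with limma 3.58.1 (R 4.3.3) on log2(RPKM + 0.1), which understates changes of low genes. The model had 4 group means and a variance trend, and p values were adjusted by Benjamini-Hochberg over all genes (threshold 0.05). The script was tested on simulated data. The members and lists were chosen with earlier results of these data known. Named were all members, called genes of each list, and, by level, Aldh1a2, Crabp1, Crabp2, Lrat, Stra6, Cyp26a1 and Rxrg. Some genes under this rule are not reported here. Neighboring library numbers in the sample descriptions pair the libraries: deviations from group means correlated at 0.43 to 0.65 in all 6 pairs. Replicate numbers in the sample titles gave the same pairs under imatinib, but -0.30 to -0.10 between DP and SP libraries. Positions are from GENCODE M21 (GRCm38) and promoters from RefSeq. Tables used pandas 2.3.3 and numpy 2.4.6 in Python 3.11.15, and plots used matplotlib 3.10.9.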

Additional observations from a re-analysis of the deposited data

How the results depend on the processing

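Limits include depth: Rarb, Rarg and Cyp26b1 rested on at most 66 reads per library and lay below the filter, and treatment could not be separated from library number. None of the 5 tested members other than Dhrs3, which is given without a test, was called at the main setting. Rxra passed the filter only through 3 G0M+ libraries, so its calls below among filtered genes support no difference between populations. Of the results followed for named members, 358 values were unchanged under the alternatives, 18 newly passed the threshold, 2 reversed and 1 moved. Unchanged means the same direction and side of the threshold. For Dhrs3 values without a test it means the same direction and a shift smaller than the mean SD within groups. The value that moved was the Dhrs3 difference of IMDP against DP cells, at 1.56 with a pseudocount of 1 RPKM. Both reversals were Rxrb in IMDP against IMSP cells, at 0.022 with libraries scaled to a common median and 0.074 with limma-voom on recovered reads.

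In IMDP against IMSP cells, 1 member (Rxra) was called with a pseudocount of 1 RPKM, median scaling, limma-voom and the block of neighboring library numbers. The genes called there were 1587 with median scaling, 1570 with limma-voom, 1553 with only the groups compared and 2581 at the main setting. In G0M+ against G0M- cells averaged over treatments, 1 member was called with a pseudocount of 1 RPKM, median scaling and limma-voom (Rxra) and without the filter (Rarg), and the genes called were 2652, 2379, 2507 and 2321 in that order, in place of 2648. In IMDP against DP cells, 0 genes were called with only the groups compared, 2 with median scaling and 11 with limma-voom, in place of 37. For imatinib against vehicle averaged over populations, 46 genes were called without the filter, 162 with median scaling and 166 with limma-voom, in place of 86. The cause of these shifts was not tested.

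With the block of neighboring library numbers, the pairing of which is given with the methods, 980 genes and 1 member (Rara) were called in DP against SP cells, 4446 genes and 1 member in IMDP against IMSP cells, and 4721 genes and 3 members (Rara, Rxra and Aldh1a1) in the average over treatments. The same block without the filter, chosen after seeing the data, gave 484, 4122 and 4615 genes, with 2 members (Rarg and Rxra) in IMDP against IMSP cells and 3 (Rara, Rarg and Rxra) in the average. With the replicate number of the sample titles as a block, no call of a member changed, and 240, 2781 and 2811 genes were called in the same 3 comparisons.

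Leaving out libraries, singly or the second IMDP and IMSP libraries together (the latter chosen after seeing the data), moved the genes called to between 125 and 264 in DP against SP, 902 and 2962 in IMDP against IMSP, 0 and 189 in IMDP against DP, 0 and 9 in IMSP against SP, 1583 and 3061 in the population average, 12 and 369 in the treatment average, and 0 and 1 in the interaction. The members called in the population average lay between 0 and 1.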
